A study of Mus musculus with 6 samples.

Results

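The tricarboxylic acid (TCA) cycle enzyme genes described here are *Cs*, *Idh1*, *Idh2*, *Idh3a*, *Ogdh*, *Sucla2*, *Suclg1*, *Fh1* and *Mdh2*. These 9 genes were taken by their symbols from the 55421 genes of the deposited expression table, and all 9 passed the minimum mean of 10 normalized counts for testing. RNA was sequenced from activated splenic B cells of 3 control mice (CD21-cre, called WT) and 3 mice lacking the splicing regulator hnRNPL (hnRNPL F/F CD21-cre, called hnRNPL-deficient), with 1 library per mouse. Both groups carried CD21-cre and the Rosa mT/mG reporter, so the comparison is between mice that differ in the floxed *Hnrnpl* alleles. B cells were cultured for 24 h with 5 μg/ml LPS and 5 ng/ml IL-4, and GFP-positive cells, those in which Cre had acted, were sorted for RNA. CD21-cre deletes mostly in peripheral B cells but is also active in other tissues during development, which limits the mouse as a B cell-only model. Values are normalized counts, meaning reads per gene divided by a size factor of each library.

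The TCA cycle runs in the mitochondrial matrix, where it oxidizes the acetyl group of acetyl-CoA to CO2 and passes the electrons to the respiratory chain through NADH and FADH2. Its intermediates also leave the cycle as building blocks for amino acids, lipids and nucleotides, and are refilled by other reactions (anaplerosis). B cells that are stimulated to divide are known to enlarge their mitochondria and to raise both oxidative metabolism and biosynthesis. *Idh1* is the exception in the list, because its enzyme works in the cytosol and peroxisomes rather than in the cycle itself.

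The targeted gene, *Hnrnpl*, was at 24174 to 25579.7 normalized counts in WT and at 1297 to 2178 after deletion, 6.74% of its WT level, so the labels held. Each library held between 40395186 and 75180749 reads on genes. The hnRNPL-deficient library 3 was the shallowest and had the highest share of counts on mitochondrially encoded genes, 8.92% against 5.57 to 7.06% in the others. *Xist* was at 98507 in WT library 3 and 98219 in hnRNPL-deficient library 2 and at 2.32 to 7.21 in the other libraries, while the Y-linked *Ddx3y* was at 3752 to 4284 in those others and at 3.06 and 0 in the *Xist*-high pair. Each genotype thus held 1 *Xist*-high library. The B cell receptor component *Cd79a* was at 17288 to 19661 in WT and 19149 to 24298 in hnRNPL-deficient libraries, and the B cell factor *Pax5* was at 130876 to 204678 and 131038 to 189706. T cell markers summed to 3.03 to 11.7 over the 6 libraries, and NK cell markers to 0 in WT and 1.37 to 3.03 in hnRNPL-deficient libraries. Myeloid markers summed to 605 to 741 in WT and 1662 to 1805 in hnRNPL-deficient libraries, of which *Adgre1* made up 236 to 315 and 1217 to 1369. The myeloid marker *Cd68* was at 345 to 410 in WT and 422 to 424 in hnRNPL-deficient libraries, without overlap. *Itgam* was at 5.48 to 18.6 over all libraries, and *Lyz2* and *Csf1r* were at most at 2.02 and 6.85. Erythroid markers summed to 17.6 to 38.3 in WT and 55.0 to 84.8 in hnRNPL-deficient libraries. Plasma cell markers (*Sdc1*, *Jchain*, *Prdm1*, *Xbp1*) summed to 14221 to 16488 in WT and 13373 to 16508 in hnRNPL-deficient libraries, and of these *Jchain* was called lower, at 117, 109 and 26.0 in WT and 23.4, 7.07 and 13.7 in hnRNPL-deficient libraries (log2 fold change -2.31, adjusted p = 0.0509 from limma). The B cell surface genes *Cd22* (68.5% of the WT mean) and *Ms4a1* (76.0%) also passed lower (adjusted p = 0.00987 and 0.0988 from limma). The part of these markers in the results was not tested. In bulk RNA, fewer cells of a type and less RNA per cell cannot be told apart.

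Among the 9 genes, *Idh2* and *Ogdh* were lower and *Idh1* was higher in hnRNPL-deficient B cells at a Benjamini-Hochberg adjusted p under 0.1 from limma, the threshold of the study. *Idh2*, the mitochondrial NADP-dependent isocitrate dehydrogenase, fell the most, to 65.7% of the WT mean. *Ogdh*, the first component of the alpha-ketoglutarate dehydrogenase complex, fell to 76.1%, and the cytosolic *Idh1* rose to 132%. The other 6 genes did not pass the test, and their hnRNPL-deficient means lay between 78.1% (*Fh1*) and 102% (*Sucla2*) of WT.

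As a background for these counts, 7.97% of the 17640 genes tested passed lower and 10.0% passed higher, against 2 and 1 of the 9 TCA cycle genes. With the fold change of at least 1.5 that the study also required, 4.08% of tested genes were called lower and 7.28% were called higher. Only *Idh2* met both criteria among the 9 genes. The hnRNPL-deficient mean was below the WT mean for 7 of the 9. All 3 hnRNPL-deficient libraries lay below all 3 WT libraries for 4 genes (*Cs*, *Idh2*, *Ogdh*, *Fh1*), and above them for *Idh1*. Among the 17640 genes tested, such a separation was seen for 16.3% in the lower direction and 17.7% in the higher direction. The median log2 fold change was -0.26 over the 9 genes and -0.03 over all genes tested. Without adjustment, 4 of the 9 had a p under 0.05 in the lower direction and 1 in the higher direction in the same limma fit, against 12.9% and 14.4% of the genes tested.

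**Figure D1:**
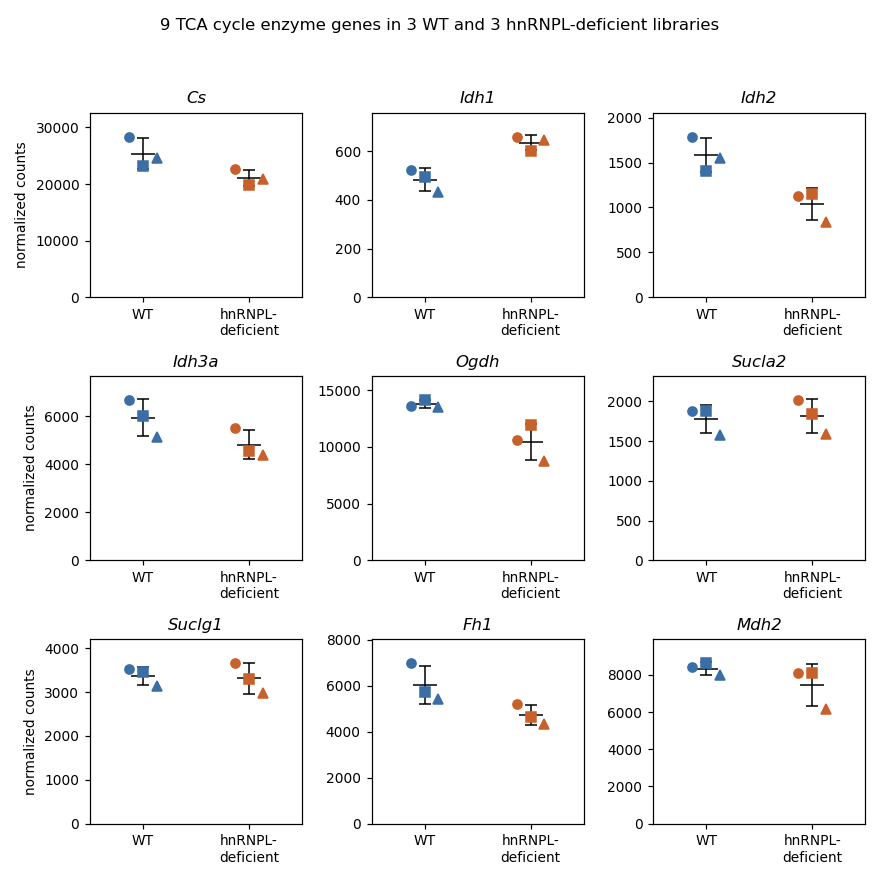
Normalized counts of each TCA cycle enzyme gene (y axis, from 0) in WT (blue) and hnRNPL-deficient (orange) B cells. Circles, squares and triangles are libraries 1, 2 and 3 of each group, and bars give the mean ± SD. The orange points lie wholly below the blue ones for *Cs*, *Idh2*, *Ogdh* and *Fh1*, wholly above them for *Idh1*, and overlap them for the other 4 genes.

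Citrate synthase, encoded by *Cs*, joins acetyl-CoA to oxaloacetate and so opens the cycle. *Cs* (chromosome 10, 128337734 to 128362479 in GRCm38, plus strand) had 28373, 23224 and 24560 normalized counts in WT and 22608, 19840.5 and 20858.5 in hnRNPL-deficient libraries. Values are in the order of libraries 1, 2 and 3, and the labels do not say whether these numbers pair the mice. All hnRNPL-deficient values were below the lowest WT value, although WT library 1 stood well above the other two. The log2 fold change was -0.26 (SE 0.109, 95% interval -0.51 to -0.01, adjusted p = 0.161 from limma), so *Cs* did not pass the test.

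Several isocitrate dehydrogenases convert isocitrate to alpha-ketoglutarate, in different compartments and with different cofactors. *Idh2* (chromosome 7, 80094846 to 80115392, minus strand) had 1789.5, 1408 and 1555 normalized counts in WT and 1131, 1155 and 837 in hnRNPL-deficient libraries. The groups did not overlap, and hnRNPL-deficient library 3 was the lowest of all. Its log2 fold change was -0.61 (SE 0.158, adjusted p = 0.0410 from limma), a 1.53-fold decrease. *Idh2* no longer passed without WT library 1 (adjusted p = 0.102) or without WT library 3 (adjusted p = 0.122). Its change was under 1.5-fold when WT library 1 (-0.52) or hnRNPL-deficient library 3 (-0.46) was left out, and with the libraries scaled to equal totals (-0.56) or by TMM factors (-0.58).

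*Idh1* (chromosome 1, 65158616 to 65186500, minus strand), whose product uses NADP as the *Idh2* product does but outside the mitochondria, had 523, 495 and 433 normalized counts in WT. After *Hnrnpl* deletion it was at 661, 602 and 646, all above the highest WT library. With a log2 fold change of 0.40 (SE 0.135, adjusted p = 0.0981 from limma), *Idh1* was close to the threshold and under 1.5-fold. With 1 library left out it passed only without WT library 1 (adjusted p = 0.0983), and the adjusted p was 0.158 to 0.292 without any of the other 5. It was 0.117 with the *Xist* level of the library as a factor in the fit.

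*Idh3a* (chromosome 9, 54586334 to 54604661, plus strand) encodes the catalytic alpha subunit of the NAD-dependent isocitrate dehydrogenase of the cycle. Its values were 6671, 5994 and 5119.9 in WT and 5520.2, 4551 and 4376 in hnRNPL-deficient libraries. The highest hnRNPL-deficient library was above the lowest WT library, so the groups overlapped. The log2 fold change was -0.30 (SE 0.133, 95% interval -0.60 to 0.0037, adjusted p = 0.187 from limma).

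*Ogdh* (chromosome 11, 6291633 to 6356642, plus strand), which encodes the E1 subunit that decarboxylates alpha-ketoglutarate, was nearly constant in WT, at 13572, 14136 and 13491 normalized counts. In the hnRNPL-deficient libraries it was at 10584, 11968 and 8794, more spread out but all below WT. The log2 fold change was -0.41 (SE 0.121, adjusted p = 0.0664 from limma), a 1.32-fold decrease. *Ogdh* passed without hnRNPL-deficient library 2 (adjusted p = 0.0481) but not without any of the other libraries (0.112, 0.181 and 0.160 without WT libraries 1, 2 and 3, and 0.128 and 0.122 without hnRNPL-deficient libraries 1 and 3). It also missed the threshold with quantile normalization (0.162) and without a mean-variance trend (0.149).

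Short promoter sequences are shown because *Ogdh* was the only gene of the list that had motifs of 2 of the 4 factor families searched for. RefSeq promoter windows on GRCm38.p6, each around an annotated start site, were held for 8 of the 9 genes (all but *Idh3a*), in 14 windows. Of these windows *Ogdh* had 6, *Idh1* had 2 and each other gene had 1, so *Ogdh* had the most places for a match. The 4 motifs, looked for on both strands, were chosen after the expression values were known. The E-box CACGTG, the site bound by MYC and related factors, was in 7.15% of all 32851 windows and in 3 of the 6 windows of *Ogdh*, at 2 positions. The E-box in chr11:6292405-6292434 was counted in overlapping windows, at -141 and -162 bases from their start sites. The estrogen-related receptor motif AAGGTCA was in 4.72% of all windows and in 1 window of *Ogdh*, on the minus strand. The NRF1 motif (GCGC, any base, then TGCGC) was in 4.60% of all windows and in the window of *Sucla2*. No window of the 8 genes held the ETS motif CCGGAAG, which 8.86% of all windows held. The matches are given 5′ to 3′ on the plus strand with the motif in capitals, and each is a match of letters only, with no measurement of binding.
*Ogdh* E-box, chr11:6292048-6292077: gtcgcggcgtgtCACGTGgaccggtcgctc
*Ogdh* E-box, chr11:6292405-6292434: ggcaagaatcctCACGTGgataccatgtaa
*Ogdh* estrogen-related receptor motif, chr11:6292153-6292182: cggacacggcgcTGACCTTggtgcctgcgg
*Sucla2* NRF1 motif, chr14:73552759-73552788: ctgcgtctctGCGCCTGCGCggtgcccagg

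Succinyl-CoA synthetase pairs a common alpha subunit, from *Suclg1*, with a beta subunit that sets which nucleotide the enzyme uses. The beta subunit comes from *Sucla2* in the enzyme named ADP-forming and from *Suclg2* in the enzyme named GDP-forming. *Suclg1* (chromosome 6, 73248382 to 73276911, plus strand) had 3533, 3453 and 3145 normalized counts in WT and 3661, 3309 and 2972 in hnRNPL-deficient libraries. *Sucla2* (chromosome 14, 73525319 to 73596142, plus strand) had 1885, 1875 and 1582 in WT and 2019, 1847 and 1587 in hnRNPL-deficient libraries. For both genes the groups overlapped almost fully. The log2 fold changes were -0.03 for *Suclg1* (95% interval -0.28 to 0.22, adjusted p = 0.883 from limma) and 0.03 for *Sucla2* (95% interval -0.27 to 0.32, adjusted p = 0.913 from limma), and the sign of each turned under other settings.

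Fumarase, from *Fh1*, hydrates fumarate to malate. *Fh1* (chromosome 1, 175600374 to 175625635, minus strand) was at 6975, 5741 and 5407 in WT and at 5210, 4616 and 4326 in hnRNPL-deficient libraries. The groups were separate but adjacent, with the highest hnRNPL-deficient library just under the lowest WT library. The log2 fold change of *Fh1* was -0.35 (SE 0.124, 95% interval -0.64 to -0.07), and its adjusted p of 0.109 from limma was just above the threshold. It passed with the libraries scaled to equal totals (adjusted p = 0.0937).

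The mitochondrial malate dehydrogenase gene *Mdh2* closes the cycle by making oxaloacetate. *Mdh2* (chromosome 5, 135778480 to 135790398, plus strand) had 8401, 8625 and 7969 normalized counts in WT and 8114, 8112.5 and 6138 in hnRNPL-deficient libraries. Only hnRNPL-deficient library 3 lay below the WT range. The log2 fold change was -0.17 (SE 0.125, 95% interval -0.46 to 0.11, adjusted p = 0.414 from limma), and -0.04 without that library.

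**Figure D2:**
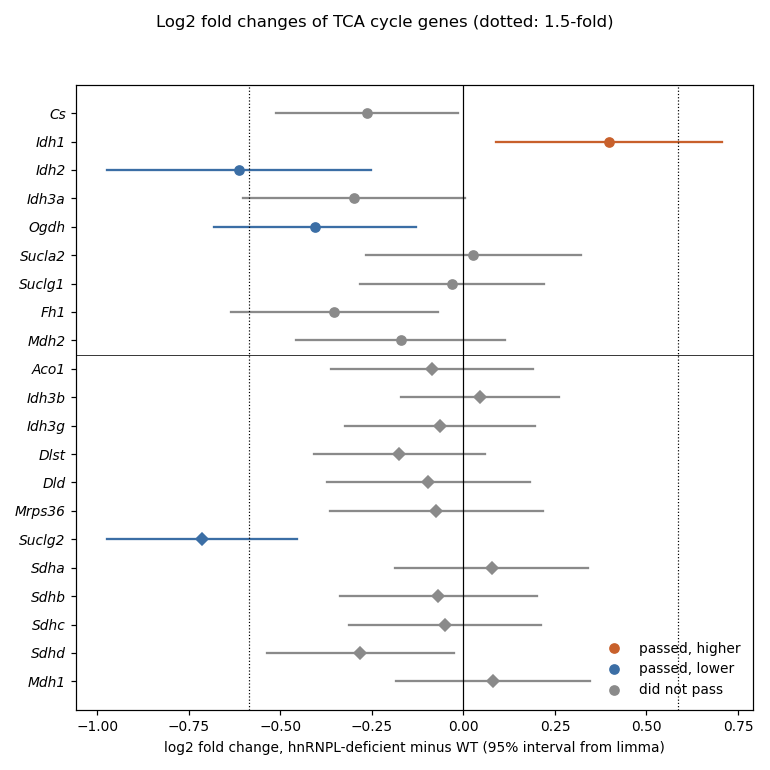
Log2 fold changes, hnRNPL-deficient minus WT (x axis), of the 9 TCA cycle genes (circles, above the line) and of 12 other enzymes and subunits of the cycle (diamonds), with 95% intervals from limma. Colour marks an adjusted p under 0.1, and dotted lines mark a 1.5-fold change. *Idh2* and *Suclg2* are the only genes shown whose point lies beyond a dotted line.

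The libraries of each genotype also differed from each other in these genes. All 9 genes were higher in WT library 1 than in WT library 3, and all 9 were higher in hnRNPL-deficient library 1 than in hnRNPL-deficient library 3. Averaged over the 9 genes, the log2 difference from the WT mean was 0.11, -0.01 and -0.10 in WT and -0.07, -0.16 and -0.34 in hnRNPL-deficient libraries. The hnRNPL-deficient library 3, the one with the fewest reads and the highest mitochondrially encoded share, was the lowest library for 6 of the 9 genes. The part of depth and of that share in this was not tested. Without this library the median log2 fold change of the 9 genes was -0.23, and 1 of them (*Idh2*) passed lower. Summed over the 9 genes, normalized counts were 71722, 64952 and 63262 in WT and 59509, 56001 and 50534 in hnRNPL-deficient libraries, with no overlap between the groups. *Cs* and *Ogdh*, whose groups were separate on their own, weigh most in this sum. Sums over the anaplerosis and exchange genes described below were also separate, at 73641 to 80916 in WT and 59826 to 69074 in hnRNPL-deficient libraries. Those of the other neighbouring lists overlapped.

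Values were also compared within *Xist* classes. Between the *Xist*-high libraries, hnRNPL-deficient library 2 and WT library 3, the log2 difference was -0.43 for *Idh2*, -0.17 for *Ogdh* and 0.47 for *Idh1*. Between the means of the other 4 libraries it was -0.71 for *Idh2*, -0.52 for *Ogdh* and 0.36 for *Idh1*. For these 3 genes no hnRNPL-deficient library overlapped WT, so the direction within a class could not have differed. The same held for *Cs* (-0.31 and -0.24) and *Fh1* (-0.23 and -0.41), whose groups were also separate. For *Idh3a*, whose groups overlapped, the direction was the same in both classes (-0.17 and -0.36). *Mdh2* (0.03 and -0.27), *Sucla2* (0.22 and -0.07) and *Suclg1* (0.07 and -0.08) differed in sign between the *Xist*-high and *Xist*-low libraries, without a test.

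**Figure D3:**
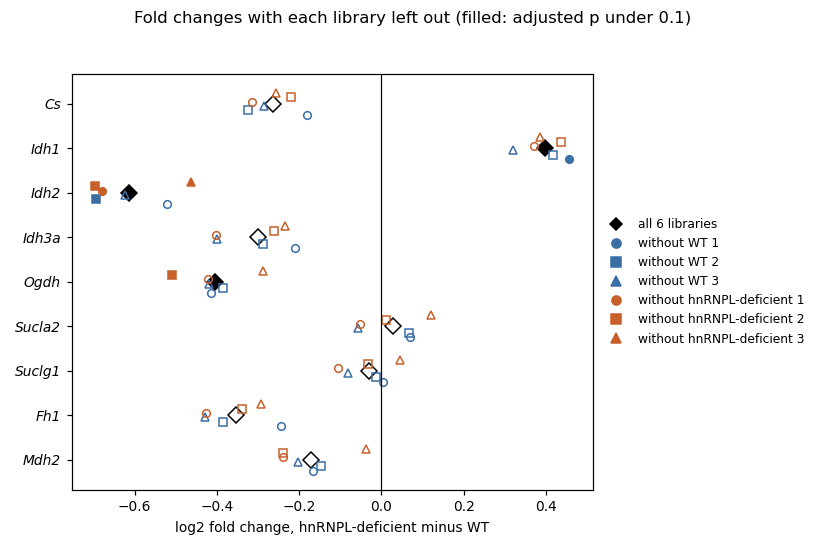
Log2 fold changes, hnRNPL-deficient minus WT (x axis), of the 9 TCA cycle genes with all 6 libraries (black diamonds) and with each library left out in turn (coloured symbols). Filled symbols have an adjusted p under 0.1 from limma. *Idh2* stays between -0.70 and -0.46 and *Idh1* between 0.32 and 0.46, whereas *Sucla2* and *Suclg1* straddle 0.

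Levels between genes were compared as normalized counts per kilobase of annotated exon. In WT cells *Cs* was the highest, at 4393 ± 462 per kb (SD, n = 3), and *Idh1* was the lowest, at 175 ± 16.7 per kb. *Ogdh* (2517 ± 64.4) and *Mdh2* (2339 ± 93.6) followed *Cs*, then *Fh1* (1781 ± 243) and *Idh3a* (1169 ± 153). Below these came *Suclg1* (731 ± 44.4), *Idh2* (612 ± 74.3) and *Sucla2* (447 ± 43.1). The WT ranges of *Suclg1* and *Idh2* overlapped, and those of the other neighbours in this order did not. In hnRNPL-deficient cells 2 neighbouring pairs stood in the opposite order, with *Mdh2* (2093 ± 320) above *Ogdh* (1915 ± 292) and *Sucla2* (456 ± 54.6) above *Idh2* (402 ± 68.4). By mean normalized counts the 9 genes ranged from percentile 50.8 (*Idh1*) to percentile 98.1 (*Cs*) of the genes tested.

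Most partner subunits and other enzymes of the cycle did not pass the test. Of 14 such genes 13 were tested (*Ogdhl*, at 0 to 6.06 normalized counts, was not), 1 passed lower and 12 did not pass. Their median log2 fold change was -0.07. The gene that fell was *Suclg2*, the GDP-forming beta subunit of succinyl-CoA synthetase (chromosome 6, 95473009 to 95718800). *Suclg2* had 4822, 4180 and 3844 normalized counts in WT and 2789, 2562 and 2456 in hnRNPL-deficient libraries, with a wide gap between the groups. Its log2 fold change was -0.71 (SE 0.114, adjusted p = 0.00684 from limma), a 1.64-fold decrease that passed under all 19 alternative settings.

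Among the partners of *Idh3a*, the log2 fold change was 0.05 for *Idh3b* and -0.06 for *Idh3g*, with adjusted p of 0.791 and 0.753 from limma. The further components of the *Ogdh* complex, *Dlst* (E2) and *Dld* (E3), had log2 fold changes of -0.18 and -0.10 (adjusted p = 0.310 and 0.646 from limma). For *Dlst* the groups did not overlap, at 7283 to 7560 in WT and 5799 to 7034 in hnRNPL-deficient libraries. Of the succinate dehydrogenase subunits, *Sdha*, *Sdhb* and *Sdhc* were between -0.07 and 0.08. The membrane anchor subunit *Sdhd* was at -0.28 (adjusted p = 0.147 from limma), with 3590 to 3997 normalized counts in WT and 2760 to 3460 in hnRNPL-deficient libraries. Cytosolic *Mdh1* was at 0.08 (adjusted p = 0.689 from limma).

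Because scaling and depth cancel in a ratio of genes of the same library, isoenzymes and alternative subunits were also compared as ratios of normalized counts per kilobase. The 5 ratios were chosen after the values were seen, and with 3 against 3 libraries a two-sided exact permutation test cannot give a p under 0.1. *Idh1* to *Idh2* was 0.273, 0.328 and 0.260 in WT and 0.545, 0.487 and 0.720 in hnRNPL-deficient libraries, so every hnRNPL-deficient library was above every WT library. This was a 2.02-fold higher ratio, and its log2 difference of 1.01 stayed between 0.85 and 1.13 with each library left out. *Suclg2* to *Sucla2* was 2.21, 1.92 and 2.10 in WT and 1.19, 1.20 and 1.33 in hnRNPL-deficient libraries, 1.67-fold lower, so the ADP-forming and GDP-forming subunit genes were closer to equal per kilobase in the hnRNPL-deficient cells.

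Cytosolic to mitochondrial malate dehydrogenase, *Mdh1* to *Mdh2*, was very even within groups, at 0.780, 0.774 and 0.777 in WT and 0.923, 0.903 and 0.952 in hnRNPL-deficient libraries. The log2 difference was 0.25, although neither gene passed the test alone. *Idh3a* to *Idh3b* was 0.807, 0.802 and 0.693 in WT and 0.683, 0.607 and 0.528 in hnRNPL-deficient libraries, a log2 difference of -0.34 with groups that were separate by a narrow margin. For each of the 5 ratios, including *Pdk1* to *Pdk2* described with the pyruvate entry genes, the groups did not overlap and the exact permutation p was 0.1, the smallest possible (also 0.1 when adjusted over the 5). The ratios were picked with these values in view, so their separation is a description only. No share over other gene pairs was computed.

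**Figure D4:**
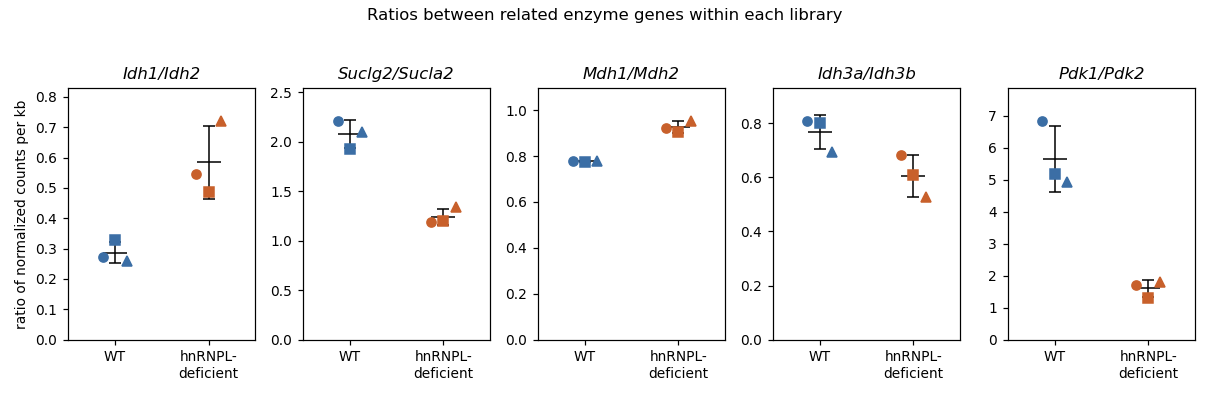
Ratios between related enzyme genes within each library, in normalized counts per kilobase of exon (y axes, from 0), for WT (blue) and hnRNPL-deficient (orange) B cells. Circles, squares and triangles are libraries 1, 2 and 3, and bars give the mean ± SD. *Idh1* to *Idh2* and *Mdh1* to *Mdh2* are higher, and *Suclg2* to *Sucla2*, *Idh3a* to *Idh3b* and *Pdk1* to *Pdk2* are lower, in every hnRNPL-deficient library than in every WT library.

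Pyruvate enters the cycle through the mitochondrial pyruvate carrier and the pyruvate dehydrogenase complex, which the PDK kinases switch off and which, like the *Ogdh* complex, needs lipoic acid. Of 16 such genes 15 were tested, 2 passed higher and 2 passed lower, and the median log2 fold change was -0.003. *Pdk1*, the kinase gene known as a target of hypoxia-inducible factor, had 3259, 2342 and 2308 normalized counts in WT and 1564, 1280 and 1183 in hnRNPL-deficient libraries. The fall of *Pdk1*, to 50.9% of the WT level, was a log2 fold change of -0.96 (SE 0.166, adjusted p = 0.00914 from limma). *Pdk2*, another kinase of the complex, was far less abundant, at 194, 183 and 190 in WT and 374, 397 and 269 in hnRNPL-deficient libraries. It rose with a log2 fold change of 0.85 (SE 0.193, adjusted p = 0.0266 from limma). Their ratio per kilobase was 6.84, 5.20 and 4.93 in WT and 1.70, 1.31 and 1.79 in hnRNPL-deficient libraries, 3.53-fold lower.

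The lipoic acid genes moved in both directions. *Lias*, the lipoic acid synthase, rose from 1373 ± 62.7 to 1731 ± 96.5 (log2 fold change 0.33, adjusted p = 0.0748 from limma), and *Lipt1*, a lipoyltransferase, fell from 351 ± 8.12 to 251 ± 9.26 (-0.48, adjusted p = 0.0678 from limma). Each was under 1.5-fold and lost the threshold in 10 of 19 alternative settings. *Lipt2*, of the same list and named after its values were seen, did not pass. It was at 71.1% of the WT mean without overlap (log2 fold change -0.48, adjusted p = 0.116 from limma). The pyruvate dehydrogenase subunits *Pdha1*, *Pdhb*, *Dlat* and *Pdhx* and the carrier genes *Mpc1* and *Mpc2*, named here after their values were seen, did not pass.

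Anaplerosis and exchange genes refill the cycle or carry its intermediates across the mitochondrial membrane. Of 19 such genes 16 were tested, 2 passed lower and 14 did not pass, with a median log2 fold change of -0.09. *Me2*, the mitochondrial NAD-dependent malic enzyme that turns malate into pyruvate, had 7423, 6259 and 5940 normalized counts in WT and 2642, 2650 and 2197 in hnRNPL-deficient libraries. This was the largest fold change among tested genes of the 5 pathway lists that passed, at -1.39 (SE 0.123, adjusted p = 5.46e-04 from limma), or 38.2% of the WT mean. *Got2*, the mitochondrial aspartate aminotransferase, fell from 16605 ± 978 to 13281 ± 1488 (log2 fold change -0.33, adjusted p = 0.0970 from limma), which was lost whichever library was left out (adjusted p = 0.124 to 0.208). The cytosolic malic enzyme *Me1*, named after its values were seen, was at 13.0 to 22.0 in WT and at 198, 453 and 6.85 in hnRNPL-deficient libraries, a spread too wide for a call (adjusted p = 0.287 from limma).

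Side branches and assembly factors of the cycle, 13 genes that were all tested, had 1 gene passing in each direction and a median log2 fold change of 0.12. *Mmut*, the mutase that makes succinyl-CoA from methylmalonyl-CoA, rose from 1096 ± 61.4 to 1552 ± 152 (log2 fold change 0.50, adjusted p = 0.0315 from limma), and missed the threshold without WT library 3 (0.123) or hnRNPL-deficient library 1 (0.106). Over the 4 lists beside the 9 genes, 57 of 62 genes were tested, 6 passed lower (3 of them 1.5-fold) and 3 passed higher (1 of them 1.5-fold). Among all genes tested, 7.97% passed lower (4.08% called) and 10.0% passed higher (7.28% called).

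**Figure D5:**
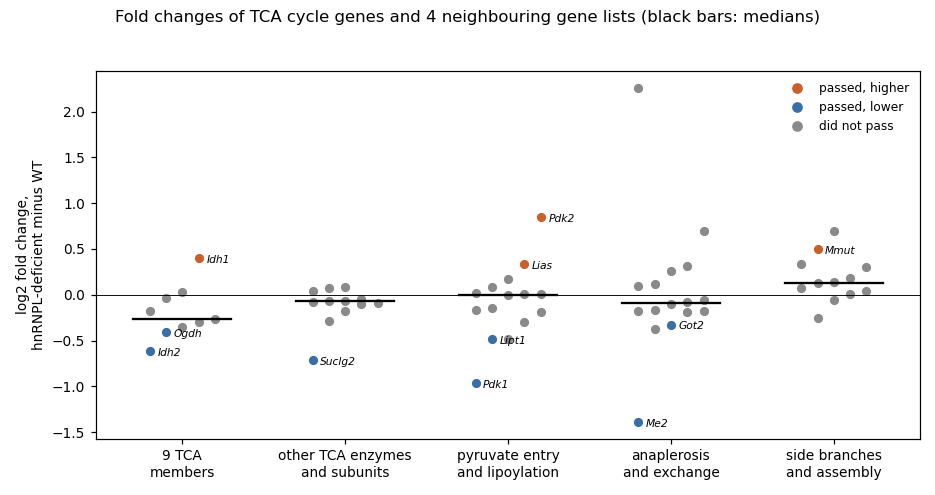
Log2 fold changes, hnRNPL-deficient minus WT (y axis), of the 9 TCA cycle genes and the genes of 4 neighbouring lists reported here, with medians over all tested genes of each list as black bars. Blue and orange points passed an adjusted p under 0.1 from limma and are named. The median is -0.26 for the 9 genes and between -0.09 and 0.12 for the other lists.

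The genes most like the 9 were sought among those with a mean level of 100 normalized counts or more, by Pearson's r with the mean centred log2 profile of the 9 genes over the 6 libraries. These were *Dtymk* (r = 0.999), *Cep76* (0.997), *Gm12693* (0.997), *Cct4* (0.996) and *Mns1* (0.996). The 9 genes themselves did not all follow the mean profile, with r of -0.45 for *Idh1*, 0.61 for *Sucla2* and 0.80 to 0.95 for the others. The r values describe libraries that share genotype, depth and scaling, and carry no p. None of the 5 passed the limma test, with log2 fold changes from -0.42 to -0.19 and unadjusted p from 0.0913 to 0.138. *Dtymk*, thymidylate kinase, was at 2996, 2697 and 2453 in WT and at 2572, 2347 and 2007 in hnRNPL-deficient libraries, so its groups overlapped.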

How the data were processed

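RNA-seq of sorted B cells from 3 WT and 3 hnRNPL-deficient mice was used. Per the labels and the study's methods, reads were trimmed (fastp 0.23.1), aligned to mm10 (STAR 2.7.9a) and counted by strand per gene (featureCounts). The authors deposited counts divided by DESeq2 (1.38.2) size factors, a signal that need not be whole. Their deposited comparison columns (fold change, error, statistic, p-values, category) were not used.

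Here log2(normalized count + 1) was fitted by limma 3.58.1 (R 4.3.3), allowing the variance to follow the mean, where a gene averaged 10 or more. Fold changes are on that scale, which understates those of low genes. Each group has 3 mice. An adjusted p under 0.1 passed, and a 1.5-fold change was also needed for a call. edgeR 4.0.16 and DESeq2 1.42.0 were run on whole reads of 5 libraries, without hnRNPL-deficient library 2. Whole reads were recovered for that library too (57575707), but a separate automatic check did not read its read step. Fits were tested on simulated data. Exon lengths and coordinates are from GENCODE on GRCm38, an earlier release than the authors'.

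The genes and lists were chosen with earlier results of these data known. Named are the 9 genes, their complex partners, list genes that passed, *Hnrnpl*, and the 5 genes with the most similar profile. Splicing was not analysed here. Some genes of the lists are not reported here.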

Additional observations from a re-analysis of the deposited data

How the results depend on the processing

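The fit was repeated under 19 alternatives, of which the *Xist* factor was chosen after seeing the data, as were the ratios. The median log2 fold change of the 9 genes stayed between -0.31 and -0.12. *Suclg2*, *Pdk1*, *Pdk2* and *Me2* passed in all 19, *Idh2* in 17, *Ogdh* in 12 and *Idh1* in 8.

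No member passed higher (0, with 1 at an unadjusted p under 0.05) with a pseudocount of 5, without a filter on low values, with quantile normalization, without a mean-variance trend, by edgeR or with the *Xist* factor. By DESeq2 1 did. The members passing lower were 1 with quantile normalization and 1 without the trend. With 1 library left out, 0 to 2 members passed lower and 0 to 1 higher. Of the members, 2 to 5 lower and 0 to 1 higher then had an unadjusted p under 0.05. The number passing lower was 0 without WT library 1 and without WT library 3. Over all genes, leaving out 1 library gave 919 to 1478 passing higher, 668 to 1056 passing lower, 830 to 1111 called higher and 478 to 696 called lower, and edgeR passed 924 lower.

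The labels do not say whether the replicate numbers pair the libraries, and the main fit did not pair them. The correlations of the deviations of same-numbered libraries were 0.43, 0.32 and 0.07, each the highest for its hnRNPL-deficient library. For hnRNPL-deficient libraries 2 and 3 the next highest were close, at 0.31 (WT library 3) and 0.05 (WT library 1). WT library 3 correlated best with hnRNPL-deficient library 2. Whether the libraries are paired was not tested. With the replicate block, 2893 genes passed higher and 2918 lower, and 5 members passed lower, *Cs* (adjusted p = 0.0370 from limma), *Idh3a* (0.0308) and *Fh1* (0.0155) besides *Idh2* and *Ogdh*.

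*Suclg1* turned positive with equal totals (0.025), TMM factors (5.72e-04), quantile normalization (0.052), edgeR (0.0095), and when WT library 1 (0.0028) or hnRNPL-deficient library 3 (0.045) was left out, and lay between -0.11 and 0.05 with each library left out. *Sucla2* turned negative when WT library 3 (-0.056) or hnRNPL-deficient library 1 (-0.052) was left out, and lay between -0.06 and 0.12. The causes were not tested. Scaling moved the median of all genes to between -0.03 and 0.03. The members had at least 433 normalized counts in every library. A p above the threshold, as for *Cs*, does not show equal levels.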
